A study of Mus musculus with 12 samples.

Results

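The 49 genes described here encode Polycomb, trithorax, chromatin remodelling, histone-modifying, BET and DNA methylation proteins other than the subunits of the BAF complex itself, and were chosen by symbol for what their proteins do, at a time when earlier results of these data were known. They are 49 of the 22367 protein-coding genes annotated on chromosomes 1 to 19, X and Y of the mouse assembly mm9. For each of them, the question was whether a BRG1-binding region of wild-type cardiac progenitors (CPs) lay at the promoter, taken as 1 kb either side of an annotated transcription start site (TSS), or within 100 kb of a TSS. BRG1 ChIPseq, which sequences DNA recovered with BRG1 after crosslinking, was done on CPs derived from mouse embryonic stem cells. The cells carried the wild-type genotype, were of strain W4/129S6 and were used at passage 15 to 20. They had formed embryoid bodies with VEGF, Activin and BMP4, and were then grown as monolayers with FGFs. Behind the list of regions stand 2 BRG1 libraries and 1 input library without immunoprecipitation, and the other 9 of the 12 libraries were not analysed here.

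The authors deposited 1 list of regions for these libraries, giving their positions but no height or P-value. It held 4791 rows, which named 3473 distinct regions, and a region on several rows was counted once. The number of rows equals the number of sites that the study gives for CPs, but the number of distinct regions equals the one it gives for cardiomyocytes, so that the origin of the repeated rows and the cell stage of the list are not beyond doubt. The list is taken here as labelled. Because there is only 1 list, no value has a spread between replicates, no test between conditions could be run, and the depth of the libraries is unknown. A gene without a listed region may be unbound or below the authors' threshold. Positions alone also hold no expression marker against which the identity of the cells could be checked. Intervals below are Wilson intervals at 95% and cover counting error over genes only, and members that share a region are not independent.

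BRG1 is an ATPase of the BAF complexes, which use the energy of ATP to move or evict nucleosomes. Polycomb complexes keep genes silent by modifying histones and compacting chromatin, while trithorax proteins and BAF oppose them at developmental genes. CHD, ISWI and INO80 proteins are remodellers of other families, BET proteins read acetylated histones, and the DNMT and TET enzymes write and oxidise DNA methylation. Many genes of such regulators have CpG islands at their promoters, that is, stretches dense in the dinucleotide CG.

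The sequences that follow show stretches at or beside the listed regions and how far they differed in CG. For each complex, 200 bases were taken from the widest region at a member's promoter, as near its midpoint as annotated non-coding exon sequence allowed. The Tet2 region is only 100 bp wide, so that its stretch runs past both ends, and the Brd2 stretch starts 1552 bp downstream of the nearest TSS, inside the region but outside the promoter window. They are on the plus strand of mm9, in lower case with each CG in capitals. The Brd2 stretch (chr17:34256940-34257139, intron) had 13 CG, that of Chd7 (chr4:8618215-8618414, intron) 28 and that of Ep400 (chr5:111199737-111199936, just upstream of the TSS) 20. The Rnf2 stretch (chr1:153347649-153347848, intron) had 31 CG, and that of Kdm1a (chr4:136157586-136157785, intron) 11. The Hdac2 stretch (chr10:36694150-36694349, just upstream) had 21 CG, that of Suz12 (chr11:79806876-79807075, with coding sequence) 32 and that of Tet2 (chr3:133207356-133207555, just upstream) 40.
Brd2: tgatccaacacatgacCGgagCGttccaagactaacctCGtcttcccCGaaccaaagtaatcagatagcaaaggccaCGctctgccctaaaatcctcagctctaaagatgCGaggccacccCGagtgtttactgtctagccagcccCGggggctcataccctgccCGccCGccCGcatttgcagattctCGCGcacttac
Chd7: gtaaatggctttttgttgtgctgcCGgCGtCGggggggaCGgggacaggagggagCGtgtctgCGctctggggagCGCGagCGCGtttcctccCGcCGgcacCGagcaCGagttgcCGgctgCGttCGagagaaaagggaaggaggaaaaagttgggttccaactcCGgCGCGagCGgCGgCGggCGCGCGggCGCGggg
Ep400: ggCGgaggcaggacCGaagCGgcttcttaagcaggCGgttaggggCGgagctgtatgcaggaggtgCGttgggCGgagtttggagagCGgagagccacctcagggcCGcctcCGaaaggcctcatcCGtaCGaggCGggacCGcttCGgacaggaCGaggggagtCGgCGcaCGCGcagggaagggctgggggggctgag
Rnf2: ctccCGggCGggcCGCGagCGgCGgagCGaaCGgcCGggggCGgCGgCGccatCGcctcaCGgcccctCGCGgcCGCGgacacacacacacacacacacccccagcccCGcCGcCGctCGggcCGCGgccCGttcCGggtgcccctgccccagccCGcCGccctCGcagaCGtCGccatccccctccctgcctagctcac
Kdm1a: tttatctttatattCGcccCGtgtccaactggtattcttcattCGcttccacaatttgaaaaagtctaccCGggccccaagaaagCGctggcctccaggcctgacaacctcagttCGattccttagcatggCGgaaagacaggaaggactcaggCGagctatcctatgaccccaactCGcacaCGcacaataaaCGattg
Hdac2: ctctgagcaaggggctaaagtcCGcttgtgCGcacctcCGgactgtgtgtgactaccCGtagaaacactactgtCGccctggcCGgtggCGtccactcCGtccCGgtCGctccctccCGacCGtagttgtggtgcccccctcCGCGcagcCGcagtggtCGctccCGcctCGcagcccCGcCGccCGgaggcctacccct
Suz12: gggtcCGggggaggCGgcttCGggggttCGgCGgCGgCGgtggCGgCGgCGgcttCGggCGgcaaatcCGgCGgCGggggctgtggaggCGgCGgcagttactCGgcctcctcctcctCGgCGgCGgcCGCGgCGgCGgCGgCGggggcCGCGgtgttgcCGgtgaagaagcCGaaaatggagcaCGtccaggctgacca
Tet2: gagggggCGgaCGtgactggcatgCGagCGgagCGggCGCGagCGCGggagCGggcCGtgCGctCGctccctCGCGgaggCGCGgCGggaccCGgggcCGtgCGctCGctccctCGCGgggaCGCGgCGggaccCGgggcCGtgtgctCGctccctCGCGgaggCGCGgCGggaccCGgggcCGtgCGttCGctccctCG
The 8 stretches ranged from 11 CG in Kdm1a, the gene of a histone H3 lysine demethylase, to 40 in Tet2, which encodes a methylcytosine dioxygenase and whose stretch is in part flanking sequence. Over 200 bases at the midpoint of all 21 regions at member promoters, the median was 29 CG, against 25 for the other promoter regions of the list.

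A BRG1 region lay at the promoter of 20 of the 49 members, or 40.8% (28.2% to 54.8%), while 11.9% of all protein-coding genes had one. Within 100 kb of a TSS, 36 of the 49 members had a region, or 73.5% (59.7% to 83.8%), against 38.3% of all protein-coding genes. The 36 genes comprise the 20 with a promoter region and 16 with a region within 100 kb only, which leaves 13 with none. Those 16 were 32.7% of the members (21.2% to 46.6%), and 26.4% of all protein-coding genes had a region within 100 kb only. Among the members nearest to the 1 kb limit, Jarid2 had its region edge 0.218 kb from a TSS and Kdm6b 1.83 kb. At the 100 kb limit, Chd4 was just inside with 98.9 kb and Hdac1 just outside with 111 kb.

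These promoters are rich in CpG, and the share with a region rose with CpG content over all genes. The members had a median of 141 CG in the 2 kb around the TSS (quartiles 102 and 164, range 10 to 323), against 66.0 over all protein-coding genes (quartiles 26.0 and 103). When each member was set against the other genes of its own class of CpG count, among 20 classes, 16.3 promoter calls would be given by CpG count, or 33.2%. The 20 counted were therefore 7.65 percentage points above the genes of like CpG content, and that value lies inside the interval of the members' share. Within 100 kb, the genes of like CpG content gave 27.7 of 49, or 56.6%, so that the members were 16.9 points higher and the value lies just below their interval. The members also had more annotated TSSs, with a median of 6 against 2 for all genes. With the CpG classes crossed with the number of TSSs, other genes gave 60.0% within 100 kb, inside the members' interval, and 35.2% at the promoter, and the differences fell to 13.5 and 5.64 points. The median number of protein-coding genes with a TSS within 100 kb was 4 for the members and for all genes. Of the comparison with all genes, most of the gap at the promoter and a part of that within 100 kb thus went with CpG count.

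Within the members, the same order was seen. Of the 28 with 139 to 323 CG, 17 (60.7%) had a promoter region, against 46.4% of the 2211 other genes in that range. Of the 11 with 95 to 138 CG, 3 (27.3%) had one, against 25% of other genes. Of the 10 with at most 94 CG, 0 had one, against 3.14%. Among these 10, Hdac4 and Chd8 had 191 and 96 CG once RefSeq starts were added. In that setting, the members' difference from genes of like CpG count was 5.91 points at the promoter and 14.9 within 100 kb. The 20 members with a promoter region ranged from 118 to 323 CG (median 160) and the 29 without from 10 to 268 (median 108), so the ranges overlapped. Chd7, which encodes a remodeller that is mutated in CHARGE syndrome, had 323 CG, more than any other protein-coding gene, and carried a region. Dnmt3a, a de novo DNA methyltransferase, ranked 11 with 268 CG but its nearest region was 441 kb away. Bmi1, a PRC1 subunit, had 245 CG and its nearest region at 284 kb, and the remodeller gene Chd1 had 216 CG and its nearest region at 69.2 kb.

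**Figure D1:**
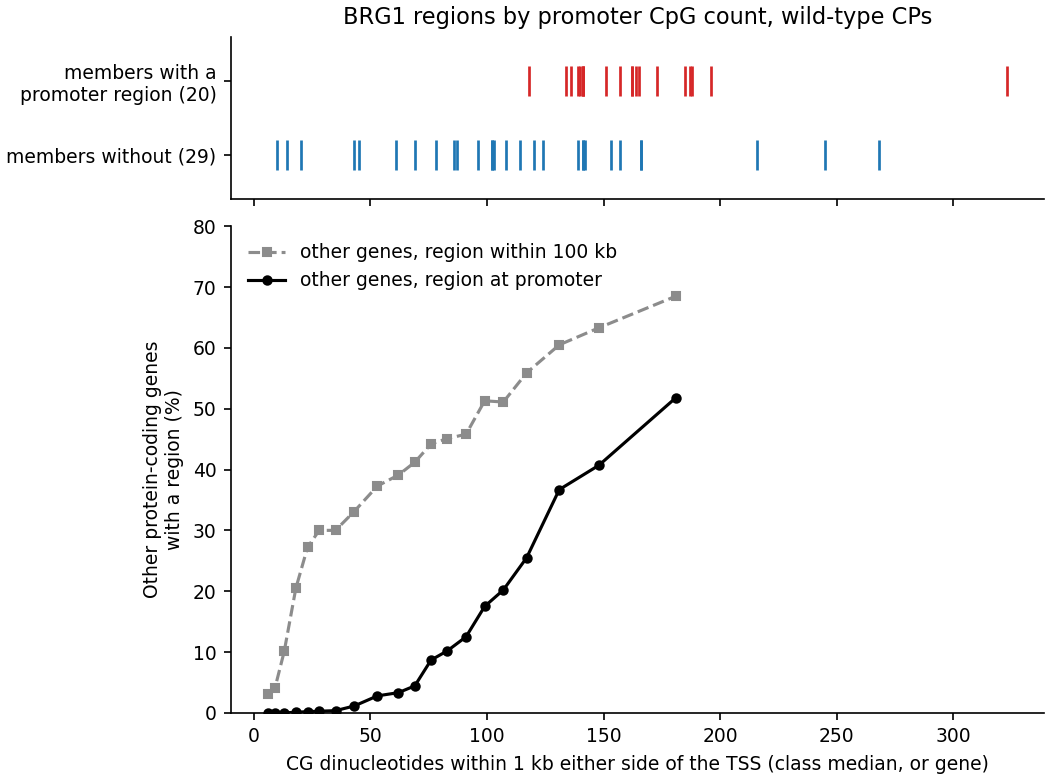
The lower panel plots the share of other protein-coding genes with a region at the promoter (solid line) or within 100 kb (dashed line) in percent against the median CG count of 20 classes, and the upper panel marks each member at its own CG count. The 20 members with a promoter region all have at least 118 CG, while the 29 without spread from 10 to 268.

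PRC2 methylates histone H3 at a lysine that marks silent genes. Of its 5 members, 3 had a region at the promoter, where CpG count gave 2.14, and 4 had one within 100 kb, against 3.20. Ezh2, its main methyltransferase, had a region of 580 bp (chr6:47544326-47544905) centred 413 bp downstream of the nearest TSS. Suz12, a core subunit, had one of 620 bp (chr11:79806666-79807285), which overlapped coding sequence. Jarid2, a cofactor that helps to bring PRC2 to chromatin, had one of 480 bp (chr13:44825446-44825925), inside the gene but outside exons. Its midpoint lay 458 bp upstream of an annotated TSS and 842 bp downstream of the gene's 5′ end. Ezh1, the paralogue of Ezh2, had its nearest region at 19.7 kb, in the promoter of Ramp2. Eed, which binds the methylated lysine, had none nearer than 149 kb although its 141 CG exceeded the count of several bound members. The core genes thus did not all carry a region.

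PRC1 ubiquitylates histone H2A and compacts chromatin. A promoter region was found for 4 of its 10 members, close to the 3.72 given by CpG count. Within 100 kb, 8 had a region, against 6.14 from CpG count. Both genes of the catalytic RING proteins were among the 4 with a promoter region. Rnf2 had a region of 1180 bp (chr1:153347266-153348445) over its TSS, and Ring1 one of 700 bp (chr17:34161486-34162185) centred 211 bp upstream of its own. The Ring1 region also lay in the promoter window of Mir219-1. Cbx6, a chromodomain subunit, had a region of 140 bp (chr15:79664706-79664845) that it shared with the overlapping gene Npcd. For Phc2, which encodes a Polyhomeotic subunit, the region of 620 bp (chr4:128404646-128405265) was centred on an internal TSS, 73.0 kb from the 5′ end of the gene.

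The 6 other PRC1 members had no region at the promoter. Cbx7 had a region of 1560 bp inside the gene, 16.7 kb from a TSS. Pcgf2, a PCGF subunit like Bmi1, had 3 within 100 kb, the nearest at 43.8 kb, and all at promoters of other genes. The neighbours Cbx2 and Cbx8 shared 1 region of 640 bp between genes, 66.4 kb and 82.2 kb away. Bmi1 and Phc1 had none within 100 kb, and the 479 kb of Phc1 was the longest distance of all 49.

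The 5 trithorax and COMPASS members, whose proteins methylate histone H3 at active genes or scaffold that activity, had no promoter region. CpG count gave 1.41, so that a count of 0 differs from it by less than 2 genes. Wdr5, a scaffold of COMPASS complexes, had a region at 39.7 kb, which was that of the Brd3 promoter. Setd1a, a methyltransferase, had one at 67.9 kb in the promoter of Bcl7c. For Setd1b, Ash2l and Ash1l, the nearest region was 127, 167 and 254 kb away. The only annotated TSS of Ash1l had 14 CG, so that its low place among CpG classes rests on a single start.

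**Figure D2:**
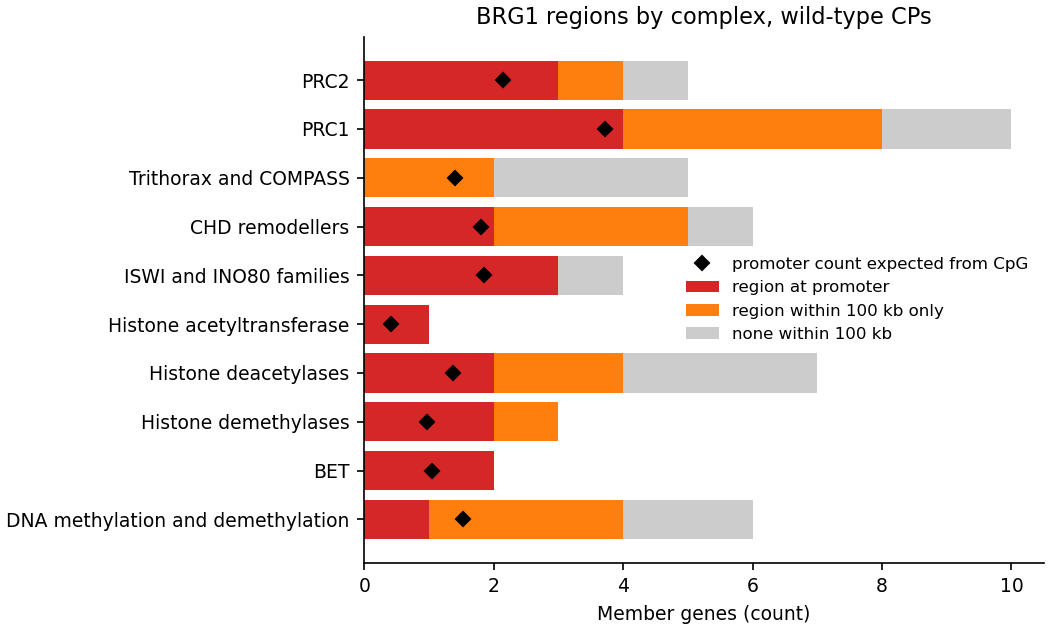
Bars count the member genes of each complex by whether a region lay at the promoter (red), within 100 kb only (orange) or not within 100 kb (grey), and diamonds give the promoter count of other genes of like CpG content. The red bar passes the diamond by more than 1 gene only for the ISWI and INO80 families and for histone demethylases, and trithorax and COMPASS has no red bar.

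Of the 6 CHD genes, 2 had a promoter region, with 1.81 given by CpG count, and 5 had one within 100 kb, against 3.30. The Chd7 region of 2240 bp (chr4:8617166-8619405) was on 9 rows of the list and ranked 22 by width among all distinct regions. Chd7 also had 3 further regions within 100 kb of a TSS, among them one of 1280 bp between genes (chr4:8838686-8839965). That region lay past the 3′ end of the gene, 71.2 kb downstream of an internal annotated TSS. Chd3, which encodes a helicase of the NuRD complex, had a region of 1200 bp (chr11:69181526-69182725) centred 782 bp downstream of the TSS. Its paralogue Chd4 had its nearest region at 98.9 kb, in another gene's promoter. Chd2 had 3 regions within 100 kb, the nearest at 55.9 kb, and Chd8, linked to autism, had its nearest at 184 kb. For Chd8, the annotated starts had at most 45 CG and a start of RefSeq raised this to 96, with no change in the call.

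Of the 4 ISWI and INO80 genes, 3 had a promoter region, against 1.85 from CpG count. Ep400, the motor of the TIP60 acetyltransferase complex, had a region of 1280 bp (chr5:111199086-111200365) over the TSS, which is also in the promoter window of the non-coding gene Gm15559 on the other strand. Ino80 had one of 700 bp (chr2:119302846-119303545), also over its TSS. Smarca5, the ISWI ATPase SNF2H, had one of 380 bp (chr8:83262806-83263185) just downstream. Srcap, whose protein deposits the histone variant H2A.Z, had 141 CG but no region nearer than 196 kb.

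The acetyltransferase gene Ep300, a coactivator at enhancers, had a region of 400 bp (chr15:81416126-81416525) whose midpoint lay 319 bp upstream of an annotated TSS. The region lay inside Ep300, with its midpoint 544 bp downstream of the gene's 5′ end. It was also in the promoter window of the miRNA gene AC160528.1. Of the 7 deacetylase genes, 2 had a promoter region, with 1.37 from CpG count, and 4 had one within 100 kb, against 3.03. Hdac2, a class I deacetylase, had a region of 760 bp (chr10:36693966-36694725) centred 5 bp upstream of the TSS. Its close paralogue Hdac1 was without one up to 111 kb. For Hdac7, a class IIa deacetylase, the region of 220 bp (chr15:97661666-97661885) lay at an internal TSS, 13.2 kb from the 5′ end. The nearest region of Hdac3 was 8.74 kb away in the promoter of Diap1, and that of Hdac5 87.1 kb away in the promoter of Ubtf. Hdac4 and Hdac9, both class IIa, had 10 and 20 CG at their annotated starts and no region nearer than 176 and 416 kb. With RefSeq starts added, Hdac4 rose to 191 CG and was still without a promoter region.

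All 3 demethylase genes had a region within 100 kb, against 1.73 from CpG count, and 2 had one at the promoter, against 0.970. Kdm1a, which encodes LSD1, had a region of 1040 bp (chr4:136157166-136158205) with 49.1% GC and 4.23 CG per 100 bases, the lowest CG density of the 21. Kdm2b, whose protein binds unmethylated CG and recruits a PRC1 variant, was the only member with 2 promoter regions. One of 960 bp (chr5:123349626-123350585) lay at an internal TSS 115 kb from the 5′ end, and the other of 320 bp (chr5:123465166-123465485) lay 237 bp upstream of the first TSS and also in the promoter window of Orai1. Kdm6b, which removes the mark that PRC2 writes, had a region of 260 bp inside the gene at 1.83 kb, and 3 more within 100 kb.

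Both BET genes had a region at a promoter, where CpG count gave 1.04. The Brd2 region (chr17:34256326-34259765) was 3440 bp wide, was on 20 rows and ranked 3 by width in the whole list. It ran over the TSS into the gene. Brd3 had a region of only 200 bp (chr2:27330806-27331005), at an internal TSS 32.3 kb from the 5′ end. Both BET members were bound, but they were unlike in the extent and the place of the region.

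Of the 6 DNA methylation genes, only Tet2 had a promoter region, against 1.53 from CpG count, and that region of 100 bp (chr3:133207406-133207505) was the narrowest of the 21. Tet1 had one of 320 bp inside the gene, 10027 bp from a TSS, and Tet3 one of 820 bp between genes at 14.2 kb. All 3 TET genes thus had a region nearer than any of the DNMT genes did. Among the methyltransferases, the maintenance enzyme gene Dnmt1 had its nearest region at 76.5 kb, in the promoter of Icam4, and the de novo enzyme genes Dnmt3b and Dnmt3a had theirs at 120 and 441 kb.

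**Figure D3:**
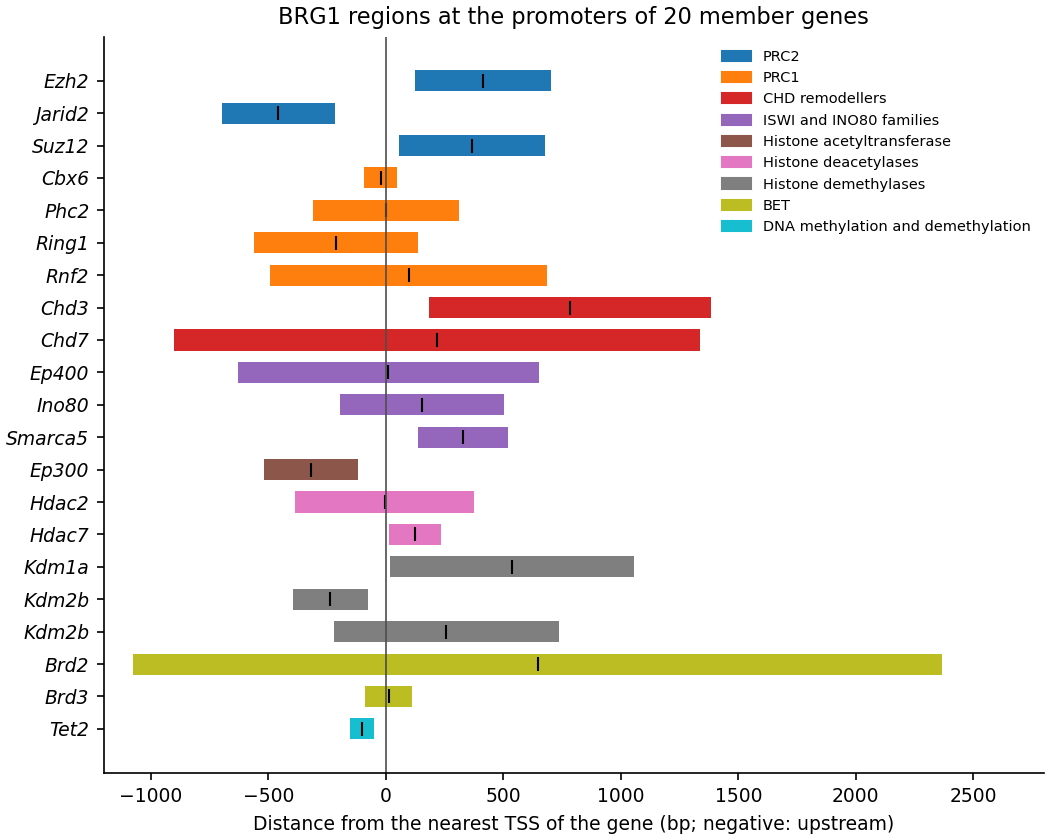
Each bar is a BRG1 region at a member promoter, drawn to scale in bp from the nearest TSS of that gene (negative is upstream), with a tick at its midpoint and the colour giving the complex. The Brd2 bar is the longest at 3440 bp and the Tet2 bar the shortest at 100 bp, and 7 of the 21 midpoints lie upstream.

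The 21 regions at member promoters had a median width of 620 bp (quartiles 380 and 1040), and the 2489 other promoter regions 420 bp (quartiles 200 and 720). A region of at least 1 kb lay at the promoter of 6 members, or 12.2%, against 1.50% of all protein-coding genes, while genes of like CpG count gave 3.39 of 49. These 6 were Brd2, Chd7, Ep400, Chd3, Rnf2 and Kdm1a, that is, 3 genes of remodellers, 1 of PRC1, 1 demethylase and 1 BET gene. A region listed on more than 1 row lay at the promoter of 10 members, or 20.4%, against 3.20% of all genes and 13.7% of genes of like CpG count. Over all distinct regions, width and number of rows had a Spearman rho of 0.65, as a description across regions, so that both counts partly hold the same regions.

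In the side of the TSS on which they were centred and in base composition, the member regions lay close to the rest. A TSS of the member was inside 11 of the 21, while 19 overlapped an exon and 8 coding sequence, not always of the member itself. The region upstream of Kdm2b, counted in both, lay wholly outside that gene. No such counts are given for the other promoter regions, nor for the distance to the 5′ end below. Of the 21, 7 were centred upstream of the nearest TSS (33.3%, 17.2% to 54.6%), against 29.3% of the other promoter regions. The median GC content was 75.6% and that of the other promoter regions 74.2%, and the CG density was 13.2 and 12.2 per 100 bases. Of the 21, 4 had their midpoint over 10 kb from the 5′ end of the annotated gene, those of Phc2, Hdac7, Brd3 and 1 of the 2 of Kdm2b. If only the 5′ end was taken as the promoter, 17 members (34.7%) had a region. That setting gave 10.8% of all genes and 26.4% of genes of like CpG count.

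**Figure D4:**
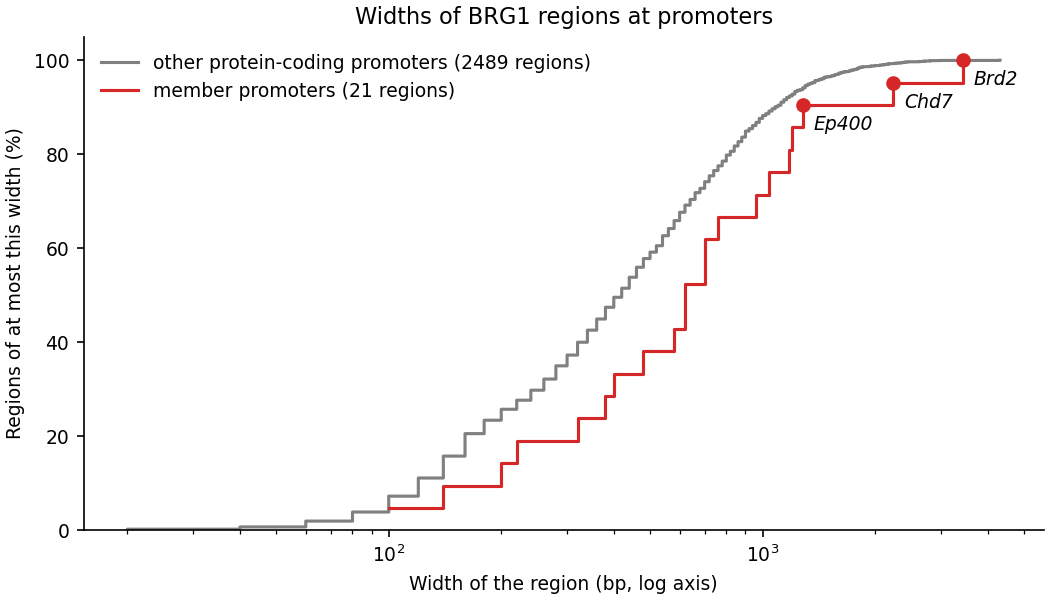
Widths in bp (log axis) of the 21 regions at member promoters are drawn beside those of the 2489 other promoter regions. The median is 620 bp against 420 bp, and the 2 ranges overlap.

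For 6 short words, both strands were searched in 300 bases around each midpoint, as a description of the sequence only. GGGCGGG, the GC box read by SP factors, was in 8 of the 21 (38.1%) and in 51.7% of the other promoter regions. CCGGAAG, an ETS-type word, was in 1 (4.76%) against 6.51%. AAGATGGC, a word of YY1, was in Ino80 alone, against 3.50% of the others. The E-box CACGTG was found in Cbx6 alone, against 5.30% of the others. AGATAA, of the kind read by zinc-finger factors of cardiac development, was found in Kdm1a alone, against 2.53%. GCATGCGC, an NRF1-type word, was in 0 of the 21 and in 1.37% of the others. No word contains another, although the ETS-type and YY1 words can share letters at their ends, and 1 match among 21 differs little from these shares.

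Outside their own promoters, the members had 48 pairings with a region within 100 kb, made by 44 distinct regions. Of these 44, 32 (72.7%) lay at the promoter of another gene, 6 between genes, 4 inside the member and 2 inside another gene. Most regions of the whole list also lay at promoters, 2510 of the 3473 at those of protein-coding genes. The 32 include promoters of any annotated gene, so the 2 counts are not quite alike. The 16 members with a region within 100 kb but none at the promoter divide accordingly. For 9 of them every such region was at a promoter of another gene, and for 7 at least 1 was at no promoter. Those 7 were Cbx2, Cbx7, Cbx8, Chd2, Kdm6b, Tet1 and Tet3. The regions inside members were those of Cbx7, Chd7, Kdm2b, Kdm6b and Tet1, and that of Kdm6b, which Chd3 also had within 100 kb, is counted among the 2 inside another gene.

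Neighbouring members shared 9 regions. Ring1 and Brd2 on chromosome 17 shared 3, Chd3 and Kdm6b on chromosome 11 shared 3, and Cbx6 with Cbx7, Cbx2 with Cbx8 and Wdr5 with Brd3 shared 1 each. The median distance from a TSS to the nearest region edge was 16.7 kb for the 49 members (quartiles 0.0180 and 111 kb) and 166 kb for all protein-coding genes (quartiles 46.1 and 533 kb). For the 29 members without a promoter region, it was 87.1 kb, from 1.83 to 479 kb.

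**Figure D5:**
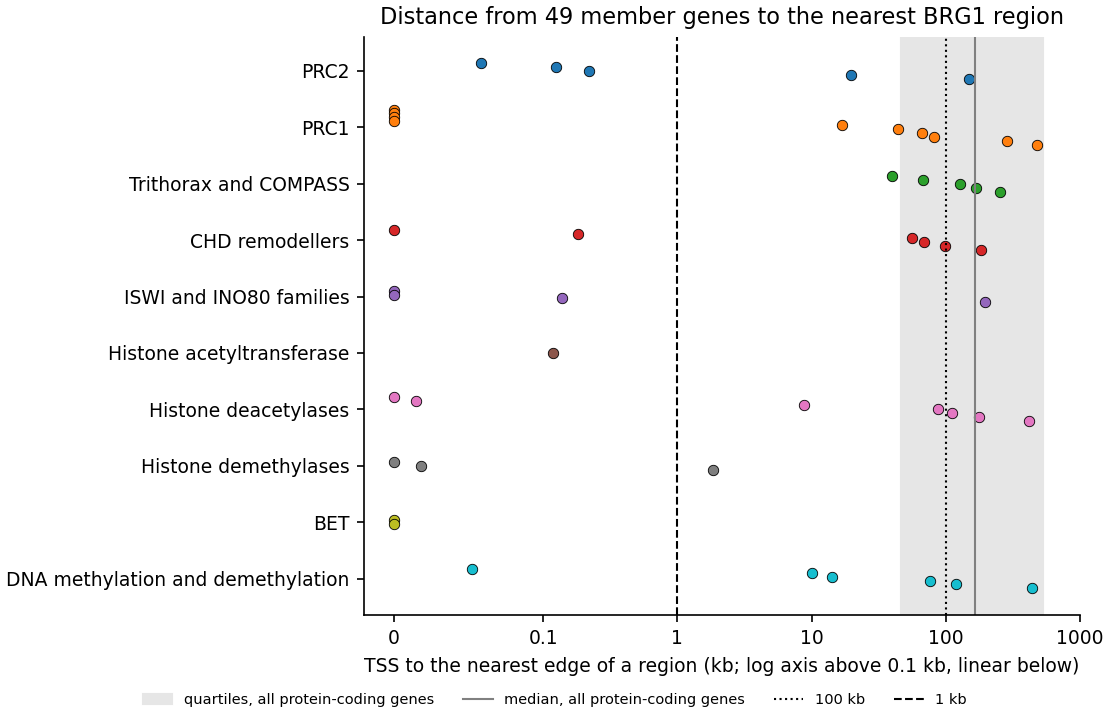
Points give the distance in kb from the nearest TSS of each of the 49 members to the nearest region edge, by complex (log axis above 0.1 kb), with the median (166 kb) and quartiles of all protein-coding genes as a line and a grey band. The members gather at 0 to 0.218 kb or lie between 1.83 and 479 kb.

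The members are a part of each complex, and 98 further genes of the same complexes were counted in the same way. Of these, 23 (23.5%, 16.2% to 32.8%) had a promoter region, where CpG count gave 28.5, which is a difference of -5.65 percentage points. Within 100 kb, 63 (64.3%, 54.4% to 73.1%) had one, a difference of 8.81 points from CpG count. CpG count gave 54.4 genes, or 55.5%, which lies inside that interval. Members and further genes together gave 43 of 147 (29.3%) at the promoter, against 44.7 from CpG count, or -1.18 points. Within 100 kb they gave 99 of 147 (67.3%), against 82.0, or 11.6 points. In this wider set, which includes the members, the share at the promoter was thus not above that of genes of like CpG content. The share within 100 kb was above it, but the wider set was not matched for the number of TSSs.

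The further genes with a promoter region were Aebp2 and Mtf2 of PRC2, Phc3, Pcgf5, Rybp and Yaf2 of PRC1, and the methyltransferase genes Mll1 and Mll3 of COMPASS. Remodellers gave Chd6, Baz1a, Baz1b, Cecr2 and Ino80d. Acetyltransferases gave Crebbp, Kat2b, Myst3 and Myst4, and deacetylase complexes gave the corepressor gene Ncor1. Demethylases gave Kdm2a, Kdm3b, Jmjd1c, Kdm4b and Jhdm1d. The widest region was that of Myst4, with 2000 bp on 4 rows, followed by Kdm2a with 1600 bp. With both lists, 5 of 8 acetyltransferase genes had a promoter region, against 2.48 from CpG count, and 2 of 18 trithorax and COMPASS genes, against 5.57. BET genes gave 0 of 2 further genes, against 0.441 from CpG count, and DNA methylation 0 of 6, against 0.926.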

How the data were processed

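BRG1 ChIPseq of wild-type CPs was taken from MNase-digested, crosslinked chromatin. Per the authors' methods, fastq-mcf was used for trimming and Bowtie for alignment to mm9, and reads of low mapping quality were dropped before enriched bins were called against input. Replicates were pooled for browser tracks and tornado plots, and whether also for the calling of regions, and with which tool versions, is not given in the sources used here. The deposited values are positions in bp, without counts or scores, so that depth and its effect on which promoters were listed are unknown.

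Positions were read as counted from 0 and printed from 1, and repeated rows were counted once. TSSs were those of GENCODE M1. Where a symbol had 2 annotation records (Srcap and Hdac4), the longest was used. CpG count was the highest number of CG in 1 kb either side over a gene's TSSs. The count given by CpG is the sum, over members, of the share called among other protein-coding genes in the same of 20 near-equal classes. As for the members, the lists were chosen with earlier results of these data known. All members are named, with positions for regions at promoters and distances for the rest, and sequences for the widest region per complex, skipping chromosome 18. Printed stretches were moved off annotated non-coding exons, furthest for Brd2, and Ep300 had no such stretch in its region.

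The steps were tested on simulated data. Tables were handled with pandas 2.3.3 and numpy 2.4.6 in Python 3.11.15, intervals came from scipy 1.17.1, sequence was read with pysam 0.24.0 and plots were drawn with matplotlib 3.10.9. Alternatives changed the promoter window, distance, TSS choice, CpG matching, merging of regions and the list itself. RefSeq promoters, of another build, served only as an added alternative. Of 18150 promoter sequences, 16782 (92.5%) matched mm9 at 1 place, and 35 members had at least 1 such start. The other libraries were not used here.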

Additional observations from a re-analysis of the deposited data

How the results depend on the processing

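Of 160 alternative values for 18 results, 142 lay within the 95% interval of the reported share (for medians, within 1.5 times) and 18 moved further. Only the differences from genes of like CpG count could turn in direction, and none of these did. With so few genes, that interval is wide for a single complex. Over all settings, the promoter share ran from 50.0% to 100% for BET, from 14.3% to 28.6% for deacetylases, from 33.3% to 100% for demethylases, from 16.7% to 33.3% for CHD, from 25% to 75% for ISWI and INO80 and from 20.0% to 40.0% for PRC1 genes. With only regions on more than 1 row, 20.4% of members had a promoter region, against 3.20% of all genes. The further complex genes gave 9.18%. Within 100 kb, 36.7% of members had such a region, against 9.92% of all genes. The median distance was then 275 kb and the median width 1070 bp. In this setting the promoter share was 25% for ISWI and INO80 genes and 0% for Ep300 and for DNA methylation genes. With each row counted, the median width was 1280 bp. With regions of at least 300 bases, DNA methylation genes had 0%. A promoter of 1 kb upstream only gave 20.0% for PRC2 and 14.3% for the further genes, and a wider one of 2.5 kb either side gave 100% for demethylases. The share within 100 kb became 57.1% at 50 kb, 100% at 1 Mb, 51.0% through the nearest flanking TSS and 59.2% for regions outside the gene's own promoter. Over all genes, these settings gave 26.0%, 85.3%, 17.0% and 31.3% in that order. Genes of like CpG count gave 45.2%, 92.6%, 37.8% and 36.5%. With the 5′ end alone, the median distance was 32.2 kb. The members' difference from genes of like CpG count ran from 3.96 to 12 points at the promoter and from 7.41 to 22.7 points within 100 kb, always above 0. Of the values, 17 came from alternatives chosen after seeing the data, and RefSeq starts changed 0 promoter calls. The cause of these shifts was not tested beyond what each setting removes or adds by construction. No paired analysis was possible because a single set of positions stands for both libraries, so that none could be left out. The number of listed genes limits the precision, and regions below the authors' threshold are not seen.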
